A study of Mus musculus with 12 samples.

Results

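The expression of 10 genes of hepatocyte growth factor and Egfr signalling was examined in the livers of mice with CCl4-induced hepatic fibrosis. The genes were Egfr, Erbb3, Errfi1, Areg, Hbegf, Met, Hgf, Hgfac, Fgfr4 and Klb, and they were taken by name. All 10 were found among the 14188 protein-coding genes of the expression data, with 20 of the 29883 protein-coding transcripts. RNA-seq was performed on whole liver from 12 mice, 6 in the PZH group and 6 controls, each mouse being 1 sample. All of the mice were male, entered the study at 6 weeks of age and were killed in the eighth week. The strain is given as C57BL/8 in the sample labels and as C57BL/6J in the methods of the study. Mice of both groups received CCl4, a solvent that injures hepatocytes, by repeated intraperitoneal injection. The PZH group was also given Pien Tze Huang (PZH), a traditional Chinese medicine, into the stomach every day, and the control group was given water in the same way. Livers without CCl4 were not analysed here, so each comparison is between livers given CCl4 with PZH and livers given CCl4 without it. The study reports obvious fibrosis in the control group and very little in the PZH group in the eighth week. It also reports lower serum ALT, AST and albumin with PZH in the eighth week, of which ALT and AST are markers of liver injury. The groups therefore differed in liver injury as well as in treatment, and the part of injury in the results on the 10 genes was not tested.

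Egfr and Erbb3 are receptor tyrosine kinases of the ErbB family. Areg (amphiregulin) and Hbegf (heparin-binding EGF-like growth factor) are ligands of Egfr that are cut from the cell surface, and Errfi1 (also called Mig6) is an inhibitor that binds the Egfr kinase and is itself induced by the signal. Hgf is made mainly by non-parenchymal liver cells such as stellate cells, is cut into its active form by the protease encoded by Hgfac, and acts on hepatocytes through its receptor Met. Fgfr4 with its co-receptor Klb (beta-klotho) is the hepatocyte receptor for an intestinal hormone that lowers bile acid synthesis. These receptors share the Ras-MAPK and PI3K cascades and are known for hepatocyte growth and survival after injury.

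Expression was measured as FPKM, which corrects fragment numbers for library size and transcript length, and the FPKM of a gene was the sum over its protein-coding transcripts. The spacing of the lowest FPKM values gave a rough estimate of 26.85 to 42.8 M fragments per library, which is weakly based, since 7.77% to 14.1% of low values per mouse lay on such steps. The library with the highest estimate, PZH 1, had the lowest median log2(FPKM + 1) over all protein-coding transcripts (0.826). Groups were compared on log2(FPKM + 1) with limma, and a gene was called at a Benjamini-Hochberg adjusted p below 0.05 over all 14188 genes. Errors after ± are SDs over the 6 mice of a group. Of all genes 44.8% were called. The median log2 fold change (PZH minus control) of all genes was -0.11, so a gene at 0 already lay above the middle of the distribution. Division of each mouse by a median-ratio scale factor brought this median to 0.00 and changed the balance of calls from 4560 lower and 1798 higher to 2739 lower and 2807 higher.

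The liver identity of the samples was checked with marker genes. The summed FPKM of 6 hepatocyte markers was 41484 to 57772 with PZH, above all controls at 23532 to 37373. Most of this sum was Alb alone, at 33360 to 46362 with PZH and 18015 to 29477 without. Serum albumin, the protein of Alb, was reported as lower with PZH by the study, as given above. By single marker 3 (Alb, Ttr, Cps1) were called higher, 1 (Hnf4a) lower and 2 (Apoa1, Serpina1c) not. For 10 stellate cell and myofibroblast markers the sums were 310 to 398 against 246 to 370, with 2 called higher and 3 lower. Of 7 macrophage markers 2 were called higher and 2 lower, of 6 endothelial markers 2 lower, of 6 monocyte and neutrophil markers 2 lower and of 5 cholangiocyte markers 1 lower. Of 7 lymphocyte markers 0 were called by limma, also 0 at an unadjusted p below 0.05. For comparison, 12.7% of all genes were called higher and 32.1% lower. Epcam was listed at 0 in control 3 and Ly6g in PZH 1 and PZH 6, and no other marker was at 0 in any mouse. The part of these cell types in the results on the 10 genes was not tested. In bulk liver RNA, fewer cells of a type and less RNA per cell cannot be told apart.

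Of the 10 genes 8 were called (limma), against 44.8% of all genes. Areg, Hbegf, Egfr, Errfi1, Hgf and Fgfr4 were lower in the PZH group, which is 6 of 10 genes against 32.1% of all genes called lower. Erbb3 and Klb were higher, which is 2 of 10 against 12.7% of all genes called higher. Met and Hgfac were not called. The median log2 fold change of the 10 genes was -0.52, beside -0.11 over all genes. It was -0.17 over the 10948 genes with a mean FPKM of at least 1, a level that 9 of the 10 genes reached. At the 2-fold threshold of the study (absolute log2 fold change of at least 1 with p below 0.05) 1 gene of the 10 passed, Areg, against 4.02% of all genes. The 6 PZH values and the 6 control values did not overlap for 4 of the 10 genes (Areg, Hbegf, Errfi1 and Fgfr4), against 24.3% of all genes.

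**Figure D1:**
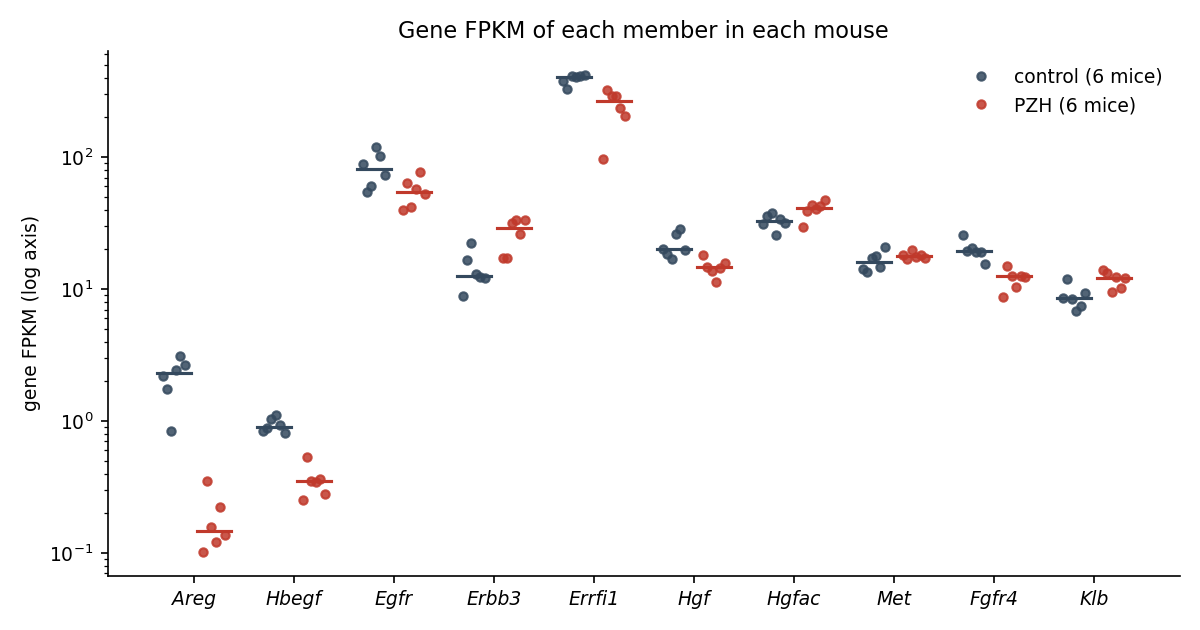
Gene FPKM (vertical log axis) of the 10 genes in each of the 6 control mice (dark) and 6 PZH mice (red), with a horizontal line at the median of each group. The points of the groups are separate for Areg, Hbegf, Errfi1 and Fgfr4 and overlap for the other 6 genes.

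The largest fall in fold was that of the ligand Areg, a 6-exon gene at chr5:91139599-91148432 (GRCm38, plus strand). Its FPKM was 0.836 at the lowest, 2.32 at the median and 3.11 at the highest control mouse, and 0.102, 0.147 and 0.351 in the PZH mice. Every PZH mouse lay below every control mouse. The mean FPKM was 11.9-fold lower in the PZH group, at 0.182 ± 0.0930 (SD, n = 6) against 2.16 ± 0.794 (SD, n = 6), and the log2 fold change of FPKM + 1 was -1.38 (limma, SE 0.16, adjusted p = 4.13e-05). Because Areg was a low transcript in both groups, with a mean FPKM at the 25.0 percentile of all genes, the added 1 compresses its change, and with 0.1 in its place the log2 fold change was -2.96.

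Hbegf on chromosome 18 was the lowest of the 10 genes in the control group. The control mice ranged from 0.817 to 1.11 FPKM with a median of 0.907, and the PZH mice from 0.254 to 0.533 with a median of 0.349. The groups were again fully separate. Mean FPKM fell 2.64-fold, from 0.937 ± 0.118 to 0.355 ± 0.0977 (SD, n = 6 each), with a log2 fold change of -0.52 (limma, SE 0.065, adjusted p = 7e-05). The log2 fold change was -1.21 with an added 0.1. A mean FPKM of at least 1 was reached by 9 of the 10 genes, and Hbegf was the exception.

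The intracellular inhibitor Errfi1 (chr4:150853919-150868892, plus strand) was the most abundant of the 10 genes. Control mice had 329 to 422 FPKM with a median of 406, and PZH mice had 97.4 to 322.0 with a median of 265. PZH 1 was the lowest mouse by a wide margin, and the highest PZH mouse was just under the lowest control mouse. The mean was 241 ± 82.1 FPKM with PZH and 391 ± 34.0 without (SD, n = 6 each), a log2 fold change of -0.79 (limma, SE 0.24, adjusted p = 0.0161). The gene has more than one start: Errfi1-201 and Errfi1-202 have the same coding sequence of 1383 bases before the stop and differ in their first exon. Errfi1-201 held 98.6% ± 0.264 of the gene FPKM with PZH and 97.0% ± 1.02 without (SD, n = 6 each, two-sided exact permutation test, p = 0.00866, adjusted over 5 genes 0.0216). The minor Errfi1-202 was at 3.52 ± 1.68 against 11.9 ± 4.70 FPKM, with a log2 fold change of -1.52 (limma, adjusted p = 0.00596 over all transcripts).

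Areg and Errfi1 were both called lower, and the 120 bases before their start sites are given here because both hold the full cAMP response element. The sequences are from RefSeq on GRCm38.p6, at chr5:91139479-91139598 for Areg and at chr4:150854950-150855069 for the start of Errfi1-201, both on the plus strand. Capitals mark TGACGTCA and its first or last 5 bases alone (TGACG or CGTCA).
Areg: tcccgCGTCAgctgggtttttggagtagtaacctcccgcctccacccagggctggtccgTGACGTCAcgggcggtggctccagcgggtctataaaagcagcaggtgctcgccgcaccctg
Errfi1: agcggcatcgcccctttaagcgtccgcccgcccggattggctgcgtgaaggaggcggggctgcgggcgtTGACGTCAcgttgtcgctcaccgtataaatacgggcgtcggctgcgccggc
In windows of 300 bases (250 before and 50 after a start), searched on both strands, TGACGTCA was found in 2 of the 10 windows of 8 genes, 1 of Areg and 1 of Errfi1, and in 1.79% of the 32851 windows of the RefSeq table. The 5-base TGACG, which the longer motif contains, was found in 3 of the 10 windows, the third being of Klb, and in 20.8% of all windows. The other Errfi1 window (chr4:150853546-150853845), the one nearer to the start of Errfi1-202, held 0 matches to either, while Errfi1-202 had a log2 fold change of -1.52 and Errfi1-201 one of -0.76. The AP-1 motif TGANTCA (7.81% of all windows) and the E-box CACGTG (7.15%) were each found in 1 of the 10 windows, of Met. Erbb3 had no window, and the chromosome of Hbegf was left out of the search of the 10 genes. These matches are letters in the sequence, and binding of any factor was not measured.

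For the receptors, Egfr (chr11:16752203-16918158, plus strand) and Erbb3 (chr10:128567523-128589652, minus strand) moved in opposite directions. Egfr was at 54.5 to 119.7 FPKM in the control mice (median 80.8) and at 39.6 to 77.8 in the PZH mice (median 54.9). No PZH mouse exceeded the control median, but the ranges overlapped. The mean was 55.5 ± 14.3 against 83.1 ± 25.2 FPKM (SD, n = 6 each), a log2 fold change of -0.56 (limma, SE 0.21, adjusted p = 0.0443). This call was marginal: it was lost after median-ratio scaling (-0.37, limma, adjusted p = 0.160), with a pseudocount of 0.1 (-0.57, limma, adjusted p = 0.0521) and without any one of 8 of the 12 mice.

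Erbb3, which binds neuregulins and has a weak kinase of its own, was higher in the PZH group. Control mice had 8.81 to 22.4 FPKM (median 12.7) and PZH mice 17.1 to 33.6 (median 28.9). All 6 PZH mice exceeded the control median, and PZH 1 and PZH 2 lay inside the control range. The mean rose from 14.2 ± 4.74 to 26.5 ± 7.75 FPKM (SD, n = 6 each), a log2 fold change of 0.86 (limma, SE 0.23, adjusted p = 0.00786).

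Egfr FPKM came from a full-length and a short transcript, and their coding ends are shown because only the long one encodes a kinase. Egfr-201 has 28 exons and 1210 codons, and Egfr-202 has 16 exons and 655 codons, of which the first 642 are shared. The bases below are coding sequence from GENCODE M21 on GRCm38, with the bases after the shared part in capitals, at chr11:16887187-16887225 for Egfr-202 and at chr11:16889914-16889943 for Egfr-201.
Egfr-202: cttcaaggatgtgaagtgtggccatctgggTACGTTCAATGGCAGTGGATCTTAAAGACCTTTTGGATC
Egfr-201: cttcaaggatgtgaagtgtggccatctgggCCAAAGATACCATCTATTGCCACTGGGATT
The long form was at 43.5 ± 14.5 FPKM with PZH and 66.8 ± 21.6 without (log2 fold change -0.61, limma, adjusted p = 0.113). The short form was at 11.9 ± 6.88 against 16.1 ± 3.72 FPKM (log2 fold change -0.52, limma, adjusted p = 0.212). Egfr-201 held 77.9% ± 11.4 of the gene with PZH and 80.0% ± 2.27 without, a difference of -2.13 percentage points (two-sided exact permutation test, p = 0.675, n = 6 each). The share in single PZH mice ran from 59.7% in PZH 2 to 87.7% in PZH 5, a wider spread than the 76.9% to 82.7% of the control mice.

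**Figure D2:**
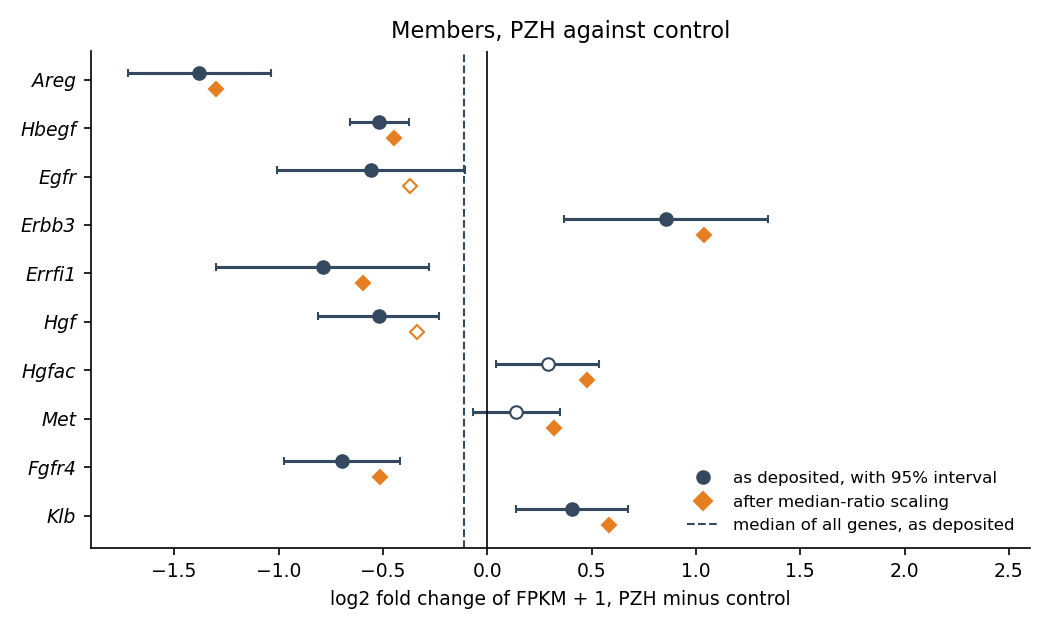
Log2 fold change of FPKM + 1 (PZH minus control) of the 10 genes, as deposited with its 95% interval (circles) and after median-ratio scaling (diamonds), where filled symbols have an adjusted p below 0.05 and the dashed line is the median of all genes (-0.11). No gene changed its direction, Egfr and Hgf lost their call after scaling, and Met and Hgfac gained one.

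In the HGF branch the ligand was called lower and its activator and receptor were not called. Hgf (chr5:16553495-16620152, plus strand) was at 16.9 to 28.6 FPKM in the control mice (median 20.1) and at 11.3 to 18.2 in the PZH mice (median 14.6). The highest PZH mouse, PZH 1, reached into the lower end of the control range. The mean fell from 21.7 ± 4.59 to 14.7 ± 2.27 FPKM (SD, n = 6 each), a log2 fold change of -0.52 (limma, SE 0.13, adjusted p = 0.00706). After median-ratio scaling it was -0.34 (limma, adjusted p = 0.0642). The stellate cell and myofibroblast markers had a median log2 fold change of 0.15, with Col3a1 and Reln called higher and Acta2, Tagln and Des called lower.

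The 3 Hgf transcripts encode 2 proteins that differ by a short in-frame stretch of the first kringle domain, a region of receptor binding. The stretch is 15 bases at the start of an exon (chr5:16572492-16572506, GRCm38, plus strand), which Hgf-204 and Hgf-201 hold, with 728 codons, and Hgf-203 lacks, with 723. The coding sequence of GENCODE M21 is shown with these bases in capitals.
Hgf-204: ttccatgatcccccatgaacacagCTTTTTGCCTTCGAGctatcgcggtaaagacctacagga
Hgf-203: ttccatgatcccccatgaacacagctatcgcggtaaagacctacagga
Both forms fell: Hgf-204 from 17.0 ± 3.89 to 11.4 ± 2.10 FPKM (log2 fold change -0.53, limma, adjusted p = 0.0265) and Hgf-203 from 3.93 ± 0.913 to 2.66 ± 0.411 (log2 fold change -0.42, limma, adjusted p = 0.0374). Both calls were lost after median-ratio scaling, at -0.36 for Hgf-204 (limma, adjusted p = 0.148) and -0.28 for Hgf-203 (limma, adjusted p = 0.179). The share of Hgf-204 was 77.3% ± 3.04 with PZH and 78.5% ± 2.56 without, a difference of -1.21 percentage points that lay within the spread between mice (two-sided exact permutation test, p = 0.463, n = 6 each). The minor Hgf-201 was at 0.642 ± 0.163 against 0.686 ± 0.0832 FPKM.

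Hgfac (chr5:35041509-35048461, plus strand), the HGF activator protease that hepatocytes secrete, was at 25.9 to 37.7 FPKM in the control mice and at 29.5 to 47.2 in the PZH mice. The mean was 40.2 ± 5.98 against 32.6 ± 4.15 FPKM (SD, n = 6 each), a log2 fold change of 0.29 (95% interval 0.044 to 0.54, limma, adjusted p = 0.0537). PZH 1 was the lowest PZH mouse, and without it the log2 fold change was 0.37 (limma, adjusted p = 0.00623). Without control 3 it was 0.33 (limma, adjusted p = 0.0373), and after median-ratio scaling 0.48 (limma, adjusted p = 0.00418). The complete transcript Hgfac-201 held 81.3% ± 1.48 of the gene FPKM with PZH and 77.5% ± 0.831 without (two-sided exact permutation test, p = 0.00216, the smallest that 6 against 6 mice can give, adjusted over 5 genes 0.0108). The remainder was the incomplete model Hgfac-207, at 7.56 ± 1.41 against 7.35 ± 0.973 FPKM.

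Met (chr6:17463800-17573980, plus strand), the only receptor of HGF, varied least of the 10 genes among the PZH mice relative to its mean, at 17.0 to 19.7 FPKM, and lay between 13.5 and 20.9 in the control mice. The PZH range fell inside the control range. The mean was 18.0 ± 0.960 against 16.4 ± 2.80 FPKM (SD, n = 6 each), and the log2 fold change of 0.14 had a 95% interval of -0.068 to 0.35 (limma, adjusted p = 0.26). After median-ratio scaling it was 0.32 (limma, adjusted p = 0.0141).

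The transcripts of Met were less steady than their sum. Met-201 and Met-203 have the same coding sequence (4137 bases without the stop), and Met-201 is a model with no bases outside it. Met-201 was at 10.9 ± 1.72 FPKM with PZH and 6.14 ± 3.54 without (log2 fold change 0.89, limma, adjusted p = 0.071). Met-203 was at 1.29 ± 0.978 against 4.96 ± 4.01 FPKM (log2 fold change -1.21, limma, adjusted p = 0.0437). The sum of both was 12.2 ± 0.775 against 11.1 ± 1.90 FPKM, with a difference of 0.14 in log2 (two-sided exact permutation test, p = 0.221, n = 6 each). Met-201 took 11.8% and 13.7% of the gene in control 4 and control 3 and 37.3% to 61.9% in the other control mice. Its share was 60.6% ± 9.34 with PZH and 38.3% ± 21.4 without (two-sided exact permutation test, p = 0.0411, adjusted over 5 genes 0.0685). The remaining Met FPKM lay on 3 incomplete models, so the gene sum of Met includes FPKM that was assigned to partial models.

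**Figure D3:**
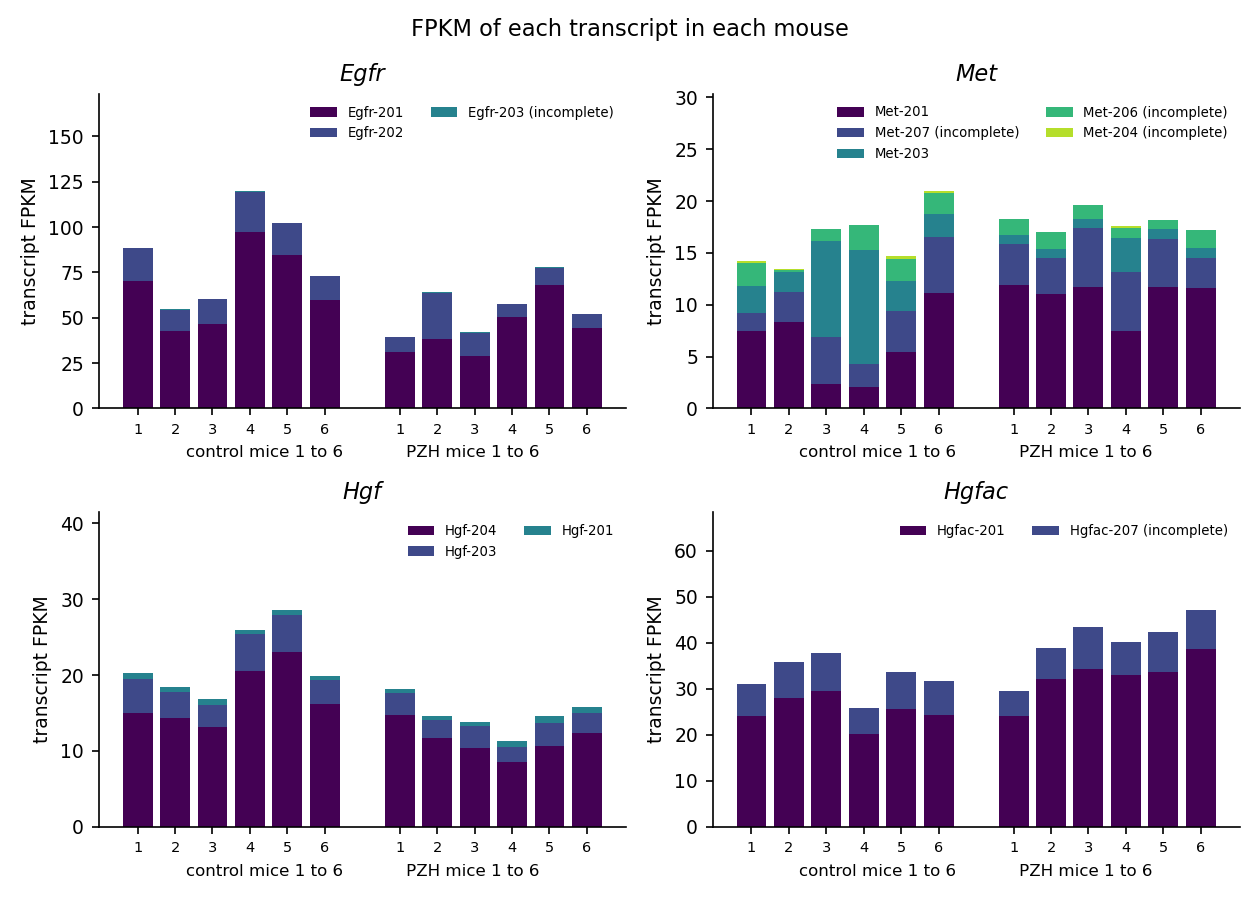
Stacked transcript FPKM of Egfr, Met, Hgf and Hgfac in each of the 6 control and 6 PZH mice, with a colour for each transcript and incomplete gene models marked. Met-203 is the main complete Met transcript in control 3 and control 4, and Met-201 is in every PZH mouse.

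Fgfr4 and its co-receptor Klb moved in opposite directions. Fgfr4 (chr13:55152640-55168759, plus strand) was at 15.4 to 25.6 FPKM in the control mice (median 19.3) and at 8.64 to 14.9 in the PZH mice (median 12.5). Every PZH mouse was below every control mouse. The mean was 1.67-fold lower in the PZH group, at 11.9 ± 2.16 against 19.8 ± 3.30 FPKM (SD, n = 6 each), with a log2 fold change of -0.69 (limma, SE 0.13, adjusted p = 0.000831). Klb (chr5:65348314-65384007, plus strand) was at 6.79 to 11.9 FPKM in the control mice (median 8.50) and at 9.45 to 14.0 in the PZH mice (median 12.2). The ranges overlapped, with control 2 the highest control mouse. The mean rose from 8.74 ± 1.77 to 11.9 ± 1.76 FPKM (SD, n = 6 each), a log2 fold change of 0.41 (limma, SE 0.12, adjusted p = 0.0174). Fgfr4 and Klb were both at a mean of 11.9 FPKM in the PZH group, whereas in the control group every mouse had more Fgfr4 than any mouse had Klb.

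FPKM is per length, so the levels of the 10 genes can be set side by side. In the control group the order of mean FPKM was Errfi1, Egfr, Hgfac, Hgf, Fgfr4, Met, Erbb3, Klb, Areg and Hbegf. The range over mice was separate from that of the next gene for Errfi1, Egfr and Klb, and each other pair of neighbours overlapped. In the PZH group the order was Errfi1, Egfr, Hgfac, Erbb3, Met, Hgf, Fgfr4, Klb, Hbegf and Areg, with separate neighbours only after Errfi1 and Klb. Erbb3 was at the seventh place in the control group and at the fourth in the PZH group.

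At the level of transcripts 11 of the 20 were called, 8 lower and 3 higher, against 19.7% of all 29883 transcripts (limma). The lower ones were Areg-201, Hbegf-201, Fgfr4-201, Errfi1-201, Errfi1-202, Hgf-203, Hgf-204 and Met-203, and the higher ones were Erbb3-201, Klb-201 and Hgfac-201. When each mouse was left out in turn, 4 of these calls held throughout (Areg-201, Hbegf-201, Fgfr4-201 and Errfi1-202) and the other 7 were lost without at least 1 mouse. After median-ratio scaling 8 of the 20 were called: beside the pair of Hgf transcripts, Errfi1-201 (-0.58, limma, adjusted p = 0.0915) and Met-203 (-1.08, limma, adjusted p = 0.0767) were lost, and Met-201 was gained (1.05, limma, adjusted p = 0.0399). The models of 5 of the 20 transcripts are incomplete in GENCODE M21. No exon of the 20 shared bases with another gene of that annotation, and 0 transcripts of the lncRNA data lay within 10 kb of the 10 genes.

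Further genes of the same pathways were taken from lists drawn up with earlier results of these data known. Of 102 genes 95 were in the data, and 61 of them were called (64.2%, against 44.8% of all genes). They were called lower in 49 cases (51.6%, against 32.1%) and higher in 12 (12.6%, against 12.7%). After median-ratio scaling 41 were called lower and 15 higher.

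Of 8 other ErbB ligands and receptors 3 were called lower and 1 higher (37.5% and 12.5%), near the 32.1% and 12.7% of all genes, with a median log2 fold change of -0.49. Nrg1 (neuregulin 1), a ligand of Erbb3 and Erbb4, was at 4.86 to 10.3 FPKM in the control mice and at 1.10 to 2.54 in the PZH mice, a log2 fold change of -1.52 (limma, adjusted p = 2.28e-05). The Egfr ligands Btc (betacellulin) and Ereg (epiregulin) also fell without overlap, with log2 fold changes of -1.06 and -0.69 (limma, adjusted p = 0.00027 and 0.000665). The ligand Tgfa was at 10.7 ± 4.80 FPKM in the control group and 4.81 ± 2.47 in the PZH group, and was not called (log2 fold change -0.96, limma, adjusted p = 0.118), though it was without control 1 (-1.38, limma, adjusted p = 0.00558). Erbb4 was the gene of this list that rose, from 0.150 ± 0.0390 to 0.665 ± 0.101 FPKM, a log2 fold change of 0.53 (limma, adjusted p = 2.67e-05). Nrg4 was at 2.29 ± 0.690 against 3.07 ± 0.970 FPKM and was called lower only without control 2 (limma, adjusted p = 0.0131). Egf was not called, at a mean of 0.102 FPKM in both groups. Erbb2 was not called either. It was listed at 0 in control 5 and at 0.598 to 0.708 FPKM in the other control mice, and at 0.368 to 0.618 in the PZH mice, none of which exceeded the control median of 0.642. Without control 5 the log2 fold change of Erbb2 was -0.12 (limma, adjusted p = 0.125).

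Of 6 genes of ErbB ligand shedding, 2 were called lower and 1 higher (33.3% and 16.7%, median 0.02), also near the share of all genes. Rhbdf2, which carries the sheddase Adam17 to the cell surface, fell from 10.1 ± 2.68 to 3.91 ± 0.670 FPKM (log2 fold change -1.15, limma, adjusted p = 0.000105), but with only the most abundant transcript of each gene it was not called (-0.59, limma, adjusted p = 0.437). Of 9 genes of HGF activation, 2 were called lower and 2 higher (22.2% each, median -0.01), against 32.1% and 12.7% of all genes. The plasminogen activators Plau and Plat fell, with log2 fold changes of -0.68 and -0.67 (limma, adjusted p = 0.000433 and 0.00126). Klkb1, plasma prekallikrein, rose from 27.4 ± 7.64 to 63.9 ± 5.30 FPKM without overlap (log2 fold change 1.23, limma, adjusted p = 5.9e-05).

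Of 24 adaptors and core genes of the Ras-MAPK and PI3K cascades, 14 were called lower (58.3%, against 32.1% of all genes), 1 higher and 9 not, with a median log2 fold change of -0.31. The kinase genes Akt1 (-0.75), Pik3cb (-0.63) and Map2k1 (-0.46) fell without overlap between the groups. These shifts were small, and after median-ratio scaling 9 genes of the list were called lower and 2 higher.

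Of 19 receptor and MAPK feedback inhibitors 13 were called lower and 1 higher (68.4% and 5.3%, median -0.45). Of 16 MAPK-responsive genes 13 were called lower (81.2%) and 0 higher by limma (median -1.39), also 0 higher at an unadjusted p below 0.05. Over all genes 32.1% were called lower and 12.7% higher. The groups did not overlap for 13 of the 16 MAPK-responsive genes, the same 13 that were called lower, against 24.3% of all genes without overlap. Dusp5, a nuclear phosphatase of MAP kinases, was at 6.50 to 14.5 FPKM in the control mice and at 0.812 to 1.93 in the PZH mice, a log2 fold change of -2.49 (limma, adjusted p = 8.29e-06). Its relative Dusp4 (log2 fold change -2.34), the cytokine signalling inhibitor Socs5 (-0.95) and the phosphatase Ptpn1 (-0.89) also fell (limma, adjusted p = 1.69e-05, 5.21e-05 and 0.003). Among the immediate early genes, Ier3 (log2 fold change -2.18), Egr1 (-2.10), Atf3 (-2.01) and Fos (-1.86) fell (limma, adjusted p = 0.000101, 8.85e-05, 2.01e-05 and 0.000177). The phosphorylation of Egfr or Met was not measured in these data.

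**Figure D4:**
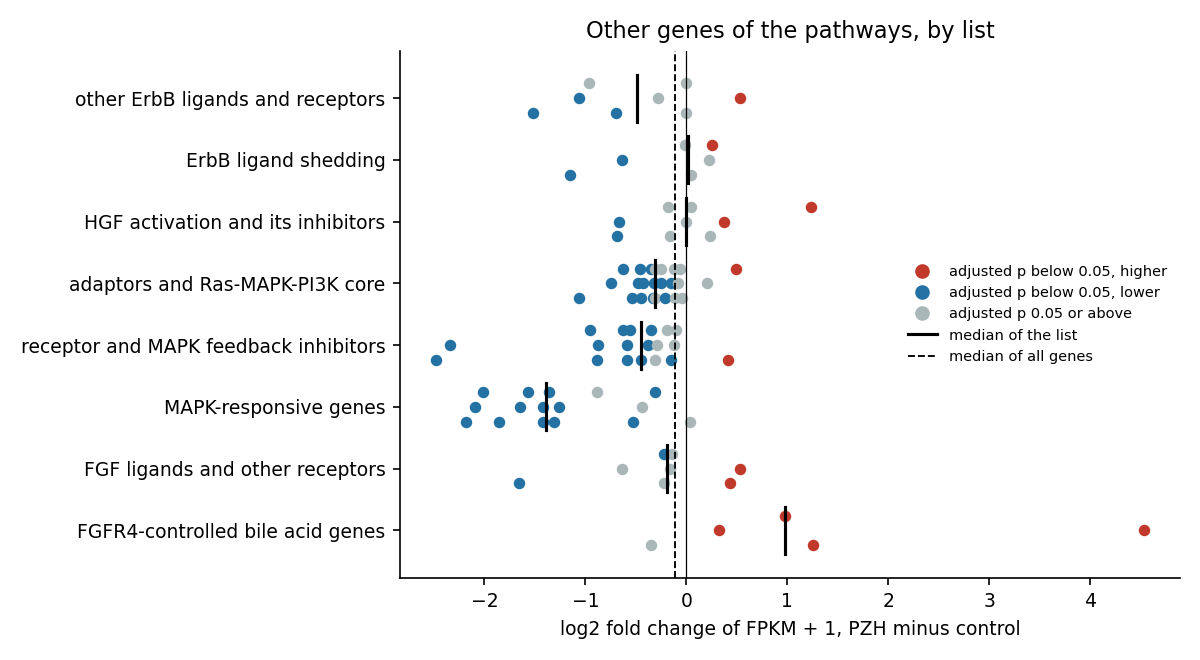
Log2 fold change of FPKM + 1 (PZH minus control) of the 95 further pathway genes, 1 point a gene, by list, coloured by call, with a bar at the median of each list and a dashed line at the median of all genes (-0.11). The MAPK-responsive genes lie furthest to the left, with a median of -1.39, and the bile acid genes furthest to the right, with a median of 0.98.

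On the Fgfr4 branch, 8 other FGF ligands and receptors held 2 called higher and 2 called lower (25.0% each, median -0.19). Over all genes the shares were 12.7% higher and 32.1% lower. Fgf23 was called lower (limma, adjusted p = 0.0255) but was listed at 0 in 5 of the 6 PZH mice and at 0.0512 to 0.386 FPKM in the control mice. Its call was lost without control 4 (limma, adjusted p = 0.0579) or control 6 (limma, adjusted p = 0.0504). The other gene called lower, named after its values were seen, was Fgf21, a hormone that hepatocytes secrete and that acts through Klb. Fgf21 was at 3.58 to 17.8 FPKM in the control mice and at 1.01 to 5.92 in the PZH mice, with no PZH mouse above the control median. The mean was 2.70 ± 1.78 against 10.8 ± 5.19 FPKM (SD, n = 6 each), a log2 fold change of -1.66 (limma, adjusted p = 0.00225). Of 5 genes of bile acid synthesis and its regulation, 4 were called higher (80%, against 12.7% of all genes) and 0 lower by limma. At an unadjusted p below 0.05 also 0 were lower, and the median was 0.98. Control of these 5 genes by Fgfr4 was not tested. Cyp7a1, the rate-limiting enzyme of bile acid synthesis, was at 0.0971 to 8.92 FPKM in the control mice and at 35.5 to 154.7 in the PZH mice, a log2 fold change of 4.54 (limma, SE 0.53, adjusted p = 4.63e-05). Nr1h4 (Fxr), the nuclear receptor for bile acids, rose from 26.7 ± 5.07 to 53.0 ± 6.72 FPKM (log2 fold change 0.98, limma, adjusted p = 8.97e-05). Of the 6 hepatocyte markers 3 were called higher in the same mice, 1 (Hnf4a) lower and 2 not, as given above. Their part in this result was not tested.

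The genes whose values followed Egfr most closely from mouse to mouse were sought within each group, over 10947 genes with a mean FPKM of at least 1, by the lower of the Pearson correlations within the 6 PZH and within the 6 control mice. They were Ccn1 (0.96 in the PZH and 0.95 in the control mice), Gfpt2 (0.91 and 0.97) and Nudt9 (0.91 and 0.94). For Hgf they were Plpp1 (0.91 and 0.91), Crip1 (0.89 and 0.94) and Spcs2 (0.87 and 0.95). With 6 mice a group and so many genes searched, these are descriptions. All genes of a mouse share its library scale, and this scale differed between mice of the same group. The median-ratio factor was 0.875 in PZH 1 and 0.991 in PZH 5, and 1.03 in control 1 and 1.11 in control 5. The part of these differences in the correlations was not tested.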

How the data were processed

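The authors sequenced strand-specific, rRNA-depleted liver libraries, trimmed reads with Trimmomatic, mapped them with HISAT2 to GRCm38 and quantified transcripts with StringTie. They deposited FPKM per transcript and mouse, on a linear scale, already divided by length and library size. Listed transcripts had an FPKM sum of at least 1.00 across the 12 mice. Only 7.77% to 14.1% of low values per mouse fell on whole fragments (tolerance 0.005), so whole reads could not be rebuilt and intervals for counting error were not computed.

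Transcripts were assigned to genes with GENCODE M21 (29876 matched, 7 unmatched), and FPKM was summed per gene. Groups were compared on log2(FPKM + 1) with limma 3.58.1 in R 4.3.3, with no filter, for genes and transcripts separately. Transcript shares were compared by two-sided exact permutation tests, for the 5 genes with at least 2 transcripts of mean FPKM 1 or more. The other steps ran in Python 3.11.15 (scipy 1.17.1, numpy 2.4.6, pandas 2.3.3, matplotlib 3.10.9). In simulated data of 14188 genes, 66% of genes changed by 0.5 and 95% of those changed by 1 on the log2 scale were recovered, with 11 false calls. Only a small set of well-expressed genes was changed there, with independent normal noise and no shift in library scale. In the real data far more genes were called, and Areg and Hbegf lie below the level of the changed genes. These rates therefore do not carry over to the real comparison.

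The 10 genes, the lists and the motifs were chosen with earlier results of these data known. Named were the 10 genes, every other ErbB ligand and receptor, and in each list up to 4 called genes with the largest log2 fold change whose groups did not overlap; 1 gene that this rule gave is not reported here. The marker genes named beside Hgf and the hepatocytes were named after their values were seen. Alternative settings were median-ratio scaling, an equal FPKM sum, a pseudocount of 0.1, a filter at a mean FPKM of 1, a mean-variance trend, the most abundant transcript of a gene, a block for mouse number, and leaving out each mouse.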

Additional observations from a re-analysis of the deposited data

Results flagged for a closer look

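Of 30 group tests for a mouse far from the others of its group (gene FPKM of the 10 genes and transcript shares of 5 genes, each in both groups), 1 passed, where about 1 in 20 is passed by chance. It was the share of Met-201 in the Met FPKM of PZH 4, at 42.3%, where the other PZH mice had 59.6% to 67.3%. The gap to the nearest mouse was 0.694 of the range of the group, and the total Met FPKM of PZH 4 was 17.6, inside the range of the other PZH mice.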

How the results depend on the processing

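No gene of the 10 changed its direction under any alternative, and 171 of 189 values kept their side of the threshold. Beside the changes given above, 4 of the 10 genes were called higher and 4 lower after median-ratio scaling, and 4 higher with the most abundant transcript of each gene, where Met was at 0.89 (limma, adjusted p = 0.0427), Hgfac at 0.35 (0.0277) and Egfr at -0.61 (0.0710). Of all genes 2739 were called lower and 2807 higher after median-ratio scaling. Of the 20 transcripts 7 were called with a pseudocount of 0.1. With each mouse left out in turn, 7 to 9 genes of the 10 were called (5 to 6 lower, 2 to 3 higher), 5597 to 6437 of all genes (3989 to 4624 lower, 1529 to 1891 higher), 43 to 50 pathway genes lower and 8 to 12 higher, 5 to 10 transcripts, and 2 to 3 transcript shares. Egfr lost its call without PZH 1, 3, 4 or 6 or control 1, 4, 5 or 6 (adjusted p 0.0577 to 0.0955).

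The values that changed sign were all near 0 and not called. After median-ratio scaling these were Hgf-201 (0.029), Egf (0.016) and Erbb2 (0.057), and with a pseudocount of 0.1 Erbb2 (0.19). With a mouse left out they were Egf (-0.014 to 0.018), Erbb2 (-0.12 to 0.030), Egfr-203 (-0.13 to 0.025), Hgfac-207 (-0.037 to 0.11) and the difference in the Egfr-201 share (-4.10 to 1.51 percentage points, the latter without PZH 2). The cause of these changes was not tested.

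The mouse numbers gave no sign of a pairing of the samples. Deviations from the group means correlated at -0.0784 to 0.0929 between mice with the same number. No such pair was the best match of both of its mice in the other group. With the number as a replicate block 8 of the 10 genes were called, 6 lower and 2 higher, and 5982 of all genes. Of the named pathway genes Fgf23 lost its call under the block (adjusted p = 0.0506). The precision of every value is limited by 6 mice a group, and low genes such as Areg and Hbegf also by the depth, which FPKM does not keep.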
